A study of Mus musculus with 45 samples.

Results

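ESA-Me, the methyl ester of alpha-eleostearic acid (ESA), was compared with its ethanol vehicle (EtOH) in primary mouse embryonic fibroblasts (MEFs) that had received no inducer of senescence. Of the 45 libraries of the study, 6 enter the comparison: the 3 from wild-type (WT) uninduced cells treated with ESA-Me and the 3 from WT uninduced cells given EtOH, chosen by their treatment and inducer labels and paired by replicate number. The study crossed 3 cell states with 5 treatments, giving 15 groups of 3 biological replicates, and sought lipids that kill senescent cells by ferroptosis. The other states were cells exposed for 24 h to 200 µM hydrogen peroxide (H2O2) or to 2 µM etoposide, a topoisomerase II poison, and then kept for 5 days in medium. The other treatments were ESA, and ESA or ESA-Me after a 1 h pretreatment with 2 µM ferrostatin-1 (Fer-1), a radical-trapping inhibitor of ferroptosis. No group received Fer-1 on its own. Exposure to each compound lasted 12 h. The sample labels give 2 µg/mL for ESA-Me and for ESA, whereas the treatment protocol gives 20 µg/mL for ESA-Me and 10 µg/mL for ESA, so the dose of ESA-Me is uncertain and the compounds are not taken as dose-matched.

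Eleostearic acid is a fatty acid with conjugated double bonds, and the ester carries a methyl group on its carboxyl end. Ferroptosis is a cell death driven by iron-dependent peroxidation of polyunsaturated phospholipids. The enzyme GPX4 reduces these peroxides with glutathione, whose synthesis draws on cystine imported by the transporter that contains SLC7A11. Electrophiles and oxidants that modify KEAP1 release the transcription factor NRF2, which drives genes of glutathione synthesis, thiol repair and haem breakdown. Growth factor and stress signals through ERK, a MAP kinase, induce immediate early transcription factors, and with them the phosphatases and Sprouty-type proteins that restrain the same pathway.

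The 6 libraries held 21.3 to 30.8 megareads of counts, and mitochondrial transcripts took 1.17% to 1.46% of them. Xist, the RNA that coats the inactive X chromosome, stood at 350 CPM (counts per megaread of the library) in vehicle replicate 2 and 290 CPM in ESA-Me replicate 2, and at no more than 0.0968 CPM in the other 4. Libraries with the same number deviated together from their group means, with correlations across genes of 0.592, 0.625 and 0.396. For libraries with different numbers the correlations were -0.531 to -0.0445. Deviations from a group mean cancel within the group, so the negative values follow in part from the positive ones. The rule of the comparison pairs same-numbered libraries, and the fit carried a term for the replicate number. What a shared number stands for is not given in the labels. All 10 fibroblast markers were measured, and their summed level was 40102 to 44566 CPM with vehicle and 38215 to 40616 CPM with ESA-Me.

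With ESA-Me, a limited set of genes rose in uninduced fibroblasts, among them the NRF2 targets Hmox1, Srxn1 and Slc7a11, immediate early and ERK-feedback genes such as Fosl1, Egr2 and Dusp4, and subunits of the proteasome. Lrrc17, Ptx3, Fmod and Il6st, which encode secreted, matrix and receptor proteins, were among the genes that fell. Of 16194 genes tested, 164 rose and 102 fell, where a call means an adjusted p under 0.05 by edgeR's quasi-likelihood test with Benjamini-Hochberg adjustment. Called genes were thus 1.64% of those tested, 1.01% higher and 0.63% lower. Every one of the 266 moved the same way in all 3 pairs. The 3 ESA-Me libraries lay entirely above the 3 vehicle libraries for 144 of the 164 and entirely below for 73 of the 102, while over all genes 8.45% lay above and 9.37% below in that way. Genes were called from these same libraries and pairs. Both kinds of agreement therefore follow in part from the selection and are not independent support. Changes were modest in size: 48 of the higher and 18 of the lower genes passed a 2-fold difference, and the median log2 fold changes were 0.68 and -0.69. These are bulk RNA levels, in which fewer cells of a type and less RNA per cell cannot be told apart.

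The count rests on the replicate term and on single libraries. Without the term edgeR called 0 genes (358 had an unadjusted p under 0.05, against 2432 with it). Leaving out ESA-Me replicate 1, 2 or 3 left 80, 24 or 30 genes called, and leaving out vehicle replicate 1, 2 or 3 left 132, 3 or 29. With both libraries of pair 2 left out, edgeR called 0 genes, with 1233 at an unadjusted p under 0.05. Omitting both libraries of pair 1 left 59 and of pair 3 left 2.

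**Figure D1:**
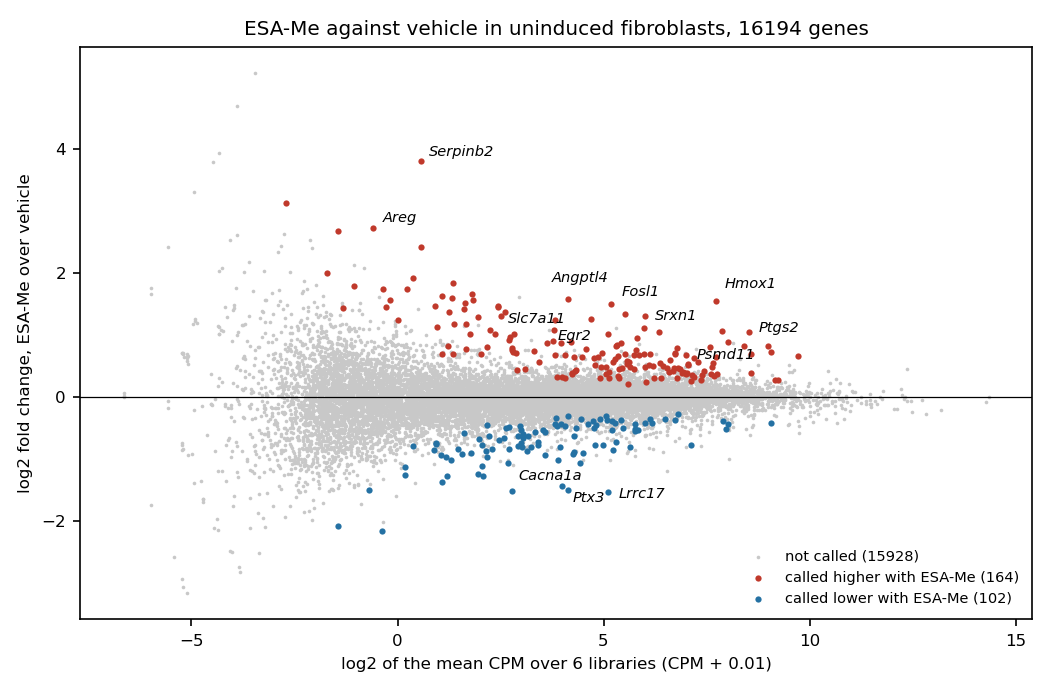
Each point is 1 of 16194 genes, placed by the log2 of its mean CPM over the 6 libraries and by its log2 fold change with ESA-Me over vehicle. Red points are the 164 genes called higher and blue points the 102 called lower, with Serpinb2 the highest of the called genes and Lrrc17 and Ptx3 among the lowest labelled.

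Among called genes, changes were most often largest in pair 2. For 112 of the 164 higher genes the largest within-pair change was in pair 2, against 23 in pair 1 and 29 in pair 3. The median within-pair log2 rise of these genes, on CPM with 0.5 added, was 0.50 in pair 1, 0.81 in pair 2 and 0.62 in pair 3. Among the 102 lower genes, pair 2 showed the largest fall for 60, pair 1 for 15 and pair 3 for 27. Over all 16194 genes, the largest upward change was in pair 2 for 6021, in pair 1 for 5238 and in pair 3 for 4935, and the largest downward change was in pair 3 for 5964, in pair 2 for 5322 and in pair 1 for 4908. Pair 2 is the one with Xist transcripts, and the part of that difference in the size of the response was not tested.

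**Figure D2:**
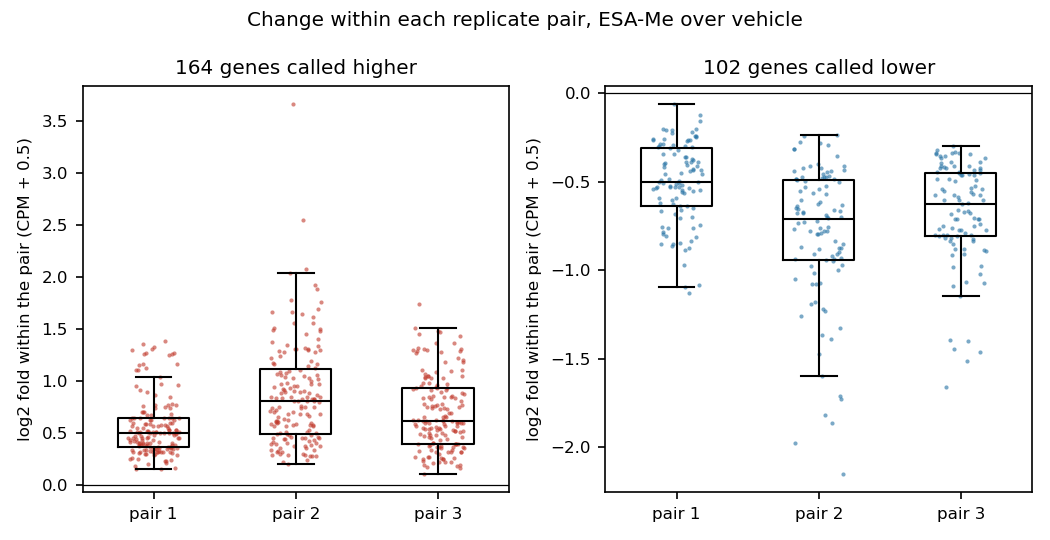
The log2 change of each called gene from vehicle to ESA-Me within pairs 1, 2 and 3 (CPM + 0.5), for the 164 genes called higher (left) and the 102 called lower (right); boxes show the median and quartiles, whiskers the spread without outlying genes. All points lie on the same side of 0, which follows in part from calling the genes on these pairs. The medians are furthest from 0 in pair 2.

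NRF2 targets held 11 of the calls. Of 34 genes, 31 were tested, 11 rose (35.5%, against 1.01% of all genes) and none fell by edgeR's test. The list's median log2 fold change was 0.36, against -0.01 over all genes. Hmox1 encodes haem oxygenase-1, which opens haem and frees its iron. Its levels were 99.4, 109 and 102 CPM with vehicle in replicates 1 to 3 and 245, 451 and 263 CPM with ESA-Me. The ESA-Me libraries all lay above the vehicle libraries, with replicate 2 highest. Its log2 fold change was 1.55 (SE 0.33, adjusted p = 0.0127). Srxn1, sulfiredoxin, which restores over-oxidized peroxiredoxins, stood at 31.7, 40.9 and 36.9 CPM with vehicle and at 78.9, 109 and 85.3 CPM with ESA-Me. The groups did not overlap, and the log2 fold change was 1.31 (SE 0.23, adjusted p = 0.00427). Osgin1, an oxidative-stress-induced growth inhibitor, went from 2.49, 2.58 and 3.44 CPM to 7.31, 9.46 and 7.004 CPM, a log2 fold change of 1.47 (SE 0.32, adjusted p = 0.0160). Gsta4, a glutathione transferase that clears 4-hydroxynonenal and related lipid aldehydes, had a log2 fold change of 1.42 (SE 0.27, adjusted p = 0.00579), with overlapping groups because vehicle replicate 2 (2.65 CPM) exceeded ESA-Me replicate 1 (2.59 CPM).

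Smaller rises within the NRF2 list covered Sqstm1, which encodes the autophagy adaptor p62 that binds KEAP1 (log2 0.81, SE 0.18), and Esd, an esterase that hydrolyses S-formylglutathione (log2 0.68, SE 0.12). Cbr3, a carbonyl reductase (log2 0.71, SE 0.19), Pgd of the pentose phosphate pathway (log2 0.48, SE 0.12) and the haem transporter gene Slc48a1 (log2 0.40, SE 0.10) were also called. Among members that missed the threshold, Txnrd1, cytosolic thioredoxin reductase, had a log2 fold change of 0.61 (SE 0.17, adjusted p = 0.0572), and Nqo1, a quinone reductase, one of 0.59 (SE 0.20, adjusted p = 0.125), both without overlap between the groups. Nfe2l2, which encodes NRF2 itself, was at 0.27 (SE 0.10, adjusted p = 0.205).

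Glutathione synthesis was represented by 3 called genes of 20 tested, all higher, with a list median of 0.17. Slc7a11, the cystine importer, was at 12.2, 17.1 and 16.6 CPM with vehicle and at 31.2, 36.6 and 41.4 CPM with ESA-Me. No vehicle library reached any ESA-Me library, and the log2 fold change was 1.26 (SE 0.29, adjusted p = 0.0223). Gclm, the modifier subunit of the rate-limiting ligase, was at 28.7, 34.4 and 28.1 CPM against 52.7, 60.2 and 53.5 CPM, a log2 fold change of 0.87 (SE 0.22, adjusted p = 0.0374). Gclc, the catalytic subunit of the same ligase, was at 0.36 (SE 0.11, adjusted p = 0.0937), and its groups overlapped. Ggct, gamma-glutamylcyclotransferase, which breaks down glutathione-derived dipeptides, rose by 1.01 on the log2 scale (SE 0.26, adjusted p = 0.0443). Of 18 thioredoxin and peroxiredoxin genes, Srxn1 alone was called (5.56%, against 1.01% of all genes called higher).

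**Figure D3:**
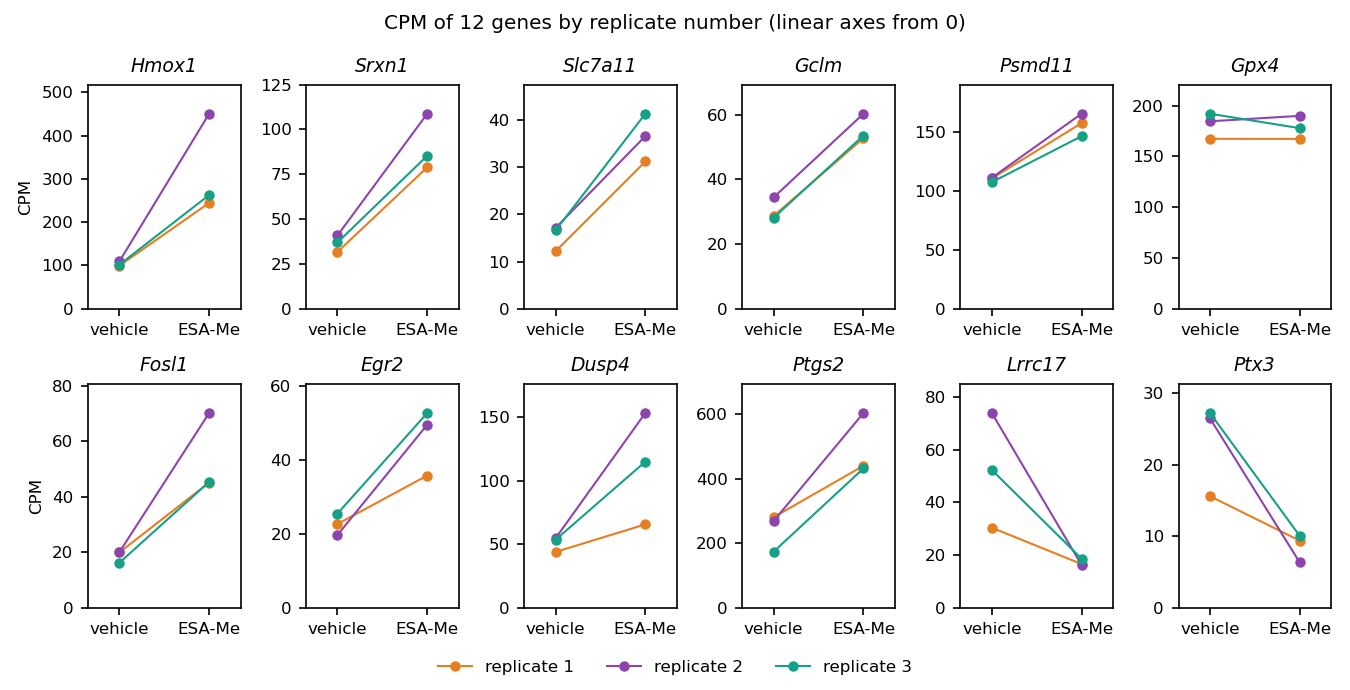
CPM of 12 genes in the 6 libraries, vehicle on the left and ESA-Me on the right of each panel, with a line joining the libraries of 1 replicate number and linear axes from 0. Lines climb in every pair for Hmox1, Srxn1, Slc7a11, Gclm, Psmd11, Fosl1, Egr2, Dusp4 and Ptgs2, descend for Lrrc17 and Ptx3, and stay nearly level for Gpx4.

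Promoter windows are shown for 6 of the genes that rose, since their letters hold the motifs usually tied to oxidant and serum responses. Each window reaches from 250 bases before to 50 bases after a RefSeq transcription start (GRCm38.p6), and 11099 of the genes tested had one. The motifs searched, on both strands, were the antioxidant response element core TGACNNNGC, the AP-1 site TGANTCA, and the CArG box bound by serum response factor. An AP-1 site can lie within an antioxidant response element core, as it does in Mt2. Srxn1 (chr2:152105387-152105520, plus strand) and Osgin1 (chr8:119437015-119437091, plus strand) are shown for AP-1 sites, which the capitals mark, and Gclm (chr3:122245388-122245466, plus strand) for the antioxidant response element core in capitals, read here on its reverse strand. Mt2 (chr8:94172504-94172582, plus strand) carries the core in capitals with the AP-1 site in its first bases. In Egr2 (chr10:67537762-67537841, plus strand) and Dusp5 (chr19:53529028-53529117, plus strand) capitals mark CArG boxes, a pair of them side by side in Dusp5. Capitals do not mark every match. The stretches of Egr2 and Dusp5 also hold the antioxidant response element core in small letters, on the reverse strand. Srxn1 also had a match to the core, outside the stretch shown. The stretch of Srxn1 runs from 137 to 4 bases before its start, that of Osgin1 from 132 to 56, that of Gclm from 169 to 91, that of Mt2 from 114 to 36 and that of Dusp5 from 117 to 28; Egr2 has several listed starts.
Srxn1: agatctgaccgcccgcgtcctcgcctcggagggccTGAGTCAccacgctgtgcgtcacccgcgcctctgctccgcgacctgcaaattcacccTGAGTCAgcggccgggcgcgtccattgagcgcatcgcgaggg
Osgin1: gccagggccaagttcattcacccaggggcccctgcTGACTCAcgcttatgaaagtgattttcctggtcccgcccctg
Gclm: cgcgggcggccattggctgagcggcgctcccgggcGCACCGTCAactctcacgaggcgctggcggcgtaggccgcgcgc
Mt2: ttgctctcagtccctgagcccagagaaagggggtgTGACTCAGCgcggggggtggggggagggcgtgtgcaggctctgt
Egr2: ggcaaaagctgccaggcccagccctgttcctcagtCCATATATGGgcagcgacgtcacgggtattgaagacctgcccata
Dusp5: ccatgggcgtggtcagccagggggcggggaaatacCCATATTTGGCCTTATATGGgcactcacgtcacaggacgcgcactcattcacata

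Over all tested genes with a window, 16.7% held the antioxidant response element core, 6.55% the AP-1 site and 1.61% the CArG box. Among the 119 higher genes with a window, 20 held the core (16.8%), 14 the AP-1 site (11.8%) and 2 the CArG box, those being Egr2 and Dusp5. Of the 72 lower genes with a window, 15 held the core (20.8%), 4 the AP-1 site (5.56%) and 2 the CArG box. Of the 25 tested NRF2 targets with a window, 8 held the core, and 5 of 27 proteasome genes did. These are matches of letters in short windows, and no factor's binding was measured.

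In the ferroptosis defence list, Slc7a11 and Gclm were called higher of 26 tested (7.69%, against 1.01% of all genes) and the median was 0.10. Both are also counted in the NRF2 and glutathione lists. The lists share members, as with Hmox1 (NRF2 and iron handling) and Gdf15 (ATF4, p53 and secretory factors). Their shares are therefore not separate results. Gpx4, the lipid peroxide reductase, was at 167, 185 and 192 CPM with vehicle and 167, 190 and 178 CPM with ESA-Me, a log2 fold change of -0.03 (SE 0.10, adjusted p = 0.954). The groups overlapped throughout. Aifm2, which encodes the ubiquinone reductase FSP1, had a log2 fold change of 0.03 (SE 0.10, adjusted p = 0.938). Acsl4, the acyl-CoA synthetase that prepares polyunsaturated fatty acids for phospholipids, had one of 0.03 (SE 0.17, adjusted p = 0.973).

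In the driver list, 3 of 22 genes rose (13.6%, against 1.01% of all genes), 1 fell (4.55%, against 0.63%), and the median was 0.02. Tfrc, the transferrin receptor that brings in iron, was at 79.8, 97.3 and 68.9 CPM with vehicle and 112, 151 and 134 CPM with ESA-Me. It rose by 0.69 on the log2 scale (SE 0.18, adjusted p = 0.0397), with every ESA-Me library above every vehicle library. The polyamine acetyltransferase gene Sat1 rose by 0.45 (SE 0.10) and the reductase gene Cyb5r1 by 0.36 (SE 0.09), while Acsl1, a synthetase for long-chain fatty acids, fell by 0.32 (SE 0.09, adjusted p = 0.0496) with overlapping groups. Of 21 genes of iron handling, Hmox1 and Tfrc were called higher (9.52%, against 1.01% of all genes), and the median was -0.01. Fth1, the ferritin heavy chain, was at 0.23 (SE 0.10, adjusted p = 0.272).

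Proteasome genes showed small and even differences. All 33 subunit genes tested had a log2 fold change above 0, between 0.11 and 0.51, 27 of them with every ESA-Me library above every vehicle library (8.45% of all genes were), and 12 were called higher (36.4%, against 1.01% of all genes); the list median was 0.29. The called members came from the catalytic core's alpha ring (Psma1, Psma4, Psma5, Psma7), from the ATPase base (Psmc1, Psmc2, Psmc4) and from the non-ATPase regulatory subunits (Psmd1, Psmd7, Psmd11, Psmd12, Psmd14). Psmd11 was at 110, 111 and 107 CPM with vehicle and 157, 165 and 146 CPM with ESA-Me. The libraries of each group were close together and the groups well apart, for a log2 fold change of 0.51 (SE 0.09, adjusted p = 0.00389). Sqstm1 and Gabarapl1, which serve autophagy, were the 2 called of 32 lysosome and autophagy genes (6.25%, against 1.01% of all genes). That list's median was 0.02.

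Targets and restrainers of ERK signalling formed the list with the largest share called. Of 23 MAPK feedback genes and ligands of the EGF receptor, 10 rose and none fell by edgeR's test (43.5% higher, against 1.01% of all genes), and the median log2 fold change was 0.54. Among the ligands, Hbegf was at 210, 158 and 185 CPM with vehicle and 319, 362 and 332 CPM with ESA-Me, a log2 fold change of 0.88 (SE 0.18, adjusted p = 0.0116). Areg, amphiregulin, rose from levels of 0.0469 to 0.231 CPM to levels of 0.674 to 1.81 CPM, so its log2 fold change of 2.72 (SE 0.59, adjusted p = 0.0143) rests on few reads. The ligand gene Ereg missed the threshold with a log2 fold change of 1.11 (SE 0.31, adjusted p = 0.0607).

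Phosphatases that dephosphorylate ERK made up 4 of the 10. Dusp4 was at 44.1, 54.8 and 53.6 CPM with vehicle and 65.7, 153 and 115 CPM with ESA-Me. Replicate 1 responded least, the groups did not overlap, and the log2 fold change was 1.04 (SE 0.18, adjusted p = 0.00389). Dusp5, a nuclear phosphatase for ERK, was at 42.2, 35.3 and 37.1 CPM against 61.2, 87.8 and 73.6 CPM, a log2 fold change of 0.95 (SE 0.23, adjusted p = 0.0298). Dusp6, its cytoplasmic counterpart, rose by 0.82 (SE 0.15, adjusted p = 0.00528) and Dusp2 by 1.91 (SE 0.44, adjusted p = 0.0235), the latter from under 1 CPM. Errfi1, an inhibitor of the EGF receptor, rose by 0.76, the ETS factors Etv4 and Etv5 by 0.70 and 0.45, and Spred2 by 0.37. Dusp1, the phosphatase of stress kinases, had a log2 fold change of 0.04 (SE 0.11, adjusted p = 0.930), and the Sprouty gene Spry2 one of 0.54 (SE 0.16, adjusted p = 0.0895).

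Of 26 immediate early genes, 6 rose (23.1%, against 1.01% of all genes) and none fell, with a median of 0.27. Egr2, a zinc-finger factor, had the smallest adjusted p of all genes tested. It was at 22.7, 19.7 and 25.5 CPM with vehicle and 35.8, 49.5 and 52.7 CPM with ESA-Me, a log2 fold change of 1.01 (SE 0.14, adjusted p = 0.000363). Fosl1, which encodes the AP-1 subunit FRA-1, was at 20.0, 20.1 and 16.3 CPM against 45.1, 70.2 and 45.4 CPM. Its groups did not overlap and its log2 fold change was 1.49 (SE 0.25, adjusted p = 0.00389). Fosb rose by 1.56 (SE 0.34, adjusted p = 0.0150), Egr3 by 1.28 (SE 0.31), Arc by 1.07 (SE 0.24) and Klf10 by 0.52 (SE 0.11). Other members of the same families gave no call: Fos was at -0.04 (SE 0.28, adjusted p = 0.974) and Egr1 at 0.18 (SE 0.23, adjusted p = 0.806), both with overlapping groups.

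Other stress programmes held between 0 and 2 calls each. Of 30 targets of ATF4 and the amino acid response, Atf3 (log2 1.29, SE 0.32, adjusted p = 0.0319) and the cytokine gene Gdf15 (log2 0.64, SE 0.13, adjusted p = 0.00894) rose (6.67%, against 1.01% of all genes). In that list 29 members were above 0, and the median was 0.18. Chac1, a glutathione-degrading enzyme used as a marker of ferroptosis, had a log2 fold change of 0.26 (SE 0.16, adjusted p = 0.471). None of 22 genes of endoplasmic reticulum chaperones and the unfolded protein response was called by edgeR, 14 were below 0, and the list median was -0.04. In the heat shock list of 20, Hspb8, a small chaperone, rose by 0.46 (SE 0.09, adjusted p = 0.00579). It was the only call (5.0%, against 1.01% of all genes). In that list 19 members were above 0, with a median of 0.19. For 9 members every ESA-Me library lay above every vehicle library, against 8.45% of all genes. Hspa1a and Hspa1b, near-identical genes whose reads the counting may split between them, had log2 fold changes of 1.61 (adjusted p = 0.0664) and 0.60 (adjusted p = 0.384). The metallothioneins Mt2 and Mt1, which bind zinc and copper, rose by 1.45 (SE 0.26, adjusted p = 0.00448) and 0.67 (SE 0.16, adjusted p = 0.0284). Mt2 stood at 3.47, 2.81 and 2.44 CPM with vehicle and 6.14, 9.63 and 7.84 CPM with ESA-Me, with no overlap.

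Secreted factors and prostaglandin synthesis followed. Ptgs2, cyclo-oxygenase-2, a lipid-metabolizing enzyme often read as a marker of ferroptosis, was at 281, 270 and 175 CPM with vehicle and 441, 604 and 432 CPM with ESA-Me. The groups did not overlap, and its log2 fold change of 1.04 (SE 0.28) lay just inside the threshold (adjusted p = 0.0493). It was the only call among 19 prostaglandin genes (5.26%, against 1.01% of all genes). Of 32 secretory factors, 5 rose (15.6%, against 1.01% of all genes), among them Serpinb2, Lif, Gdf15 and Fgf2. Ptx3 alone fell (3.13%, against 0.63%), and the list median was 0.45. Serpinb2, plasminogen activator inhibitor 2, had the largest fitted change of the named genes (log2 3.81, SE 0.71, adjusted p = 0.00502), but its levels were 0.234, 0.0661 and 0.241 CPM with vehicle and 0.319, 6.64 and 1.32 CPM with ESA-Me, so replicate 2 carried most of it. Lif, a cytokine of the interleukin-6 family, rose by 0.90 (SE 0.19, adjusted p = 0.0149). Il6 itself was at 0.21 (SE 0.24, adjusted p = 0.762).

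Other named genes that rose lay outside these programmes. Slc20a1, a phosphate transporter, was at 153, 151 and 147 CPM with vehicle and 262, 382 and 312 CPM with ESA-Me, a log2 fold change of 1.07 (SE 0.20, adjusted p = 0.00502). Its vehicle libraries lay within a few CPM of one another. The hyaluronan receptor gene Cd44 rose by 0.71 (SE 0.16), the chromatin protein gene Hmga2 by 0.81 (SE 0.17) and the metalloprotease inhibitor gene Timp3 by 0.66 (SE 0.16). Angptl4, an inhibitor of lipoprotein lipase that fatty acids induce through PPAR receptors, was at 7.83, 9.59 and 8.53 CPM against 18.2, 37.8 and 24.4 CPM (log2 1.58, SE 0.42, adjusted p = 0.0448). It was the only call among 35 genes of PPAR targets and fatty acid oxidation (2.86%, against 1.01% of all genes), whose median was 0.01. Plin2, the lipid droplet coat gene, was at 0.09 (SE 0.10, adjusted p = 0.739). Esm1, Fam110c, Dyrk3 and Cd300lb rose by 1.47 to 1.63 on the log2 scale from vehicle means of 1.00 to 1.62 CPM. Prl2c3, Vmn2r79 and the pseudogene Hmga2-ps1 had log2 fold changes of 2.41, 1.83 and 1.66, but belong to families of similar sequence, so their counts are uncertain. Mlkl, which encodes the pore former of necroptosis, was the only call among 24 cell death genes (4.17%, against 1.01% of all genes). It was at 13.5, 9.39 and 9.59 CPM against 20.3, 17.7 and 13.9 CPM (log2 0.68, SE 0.12, adjusted p = 0.00427).

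**Figure D4:**
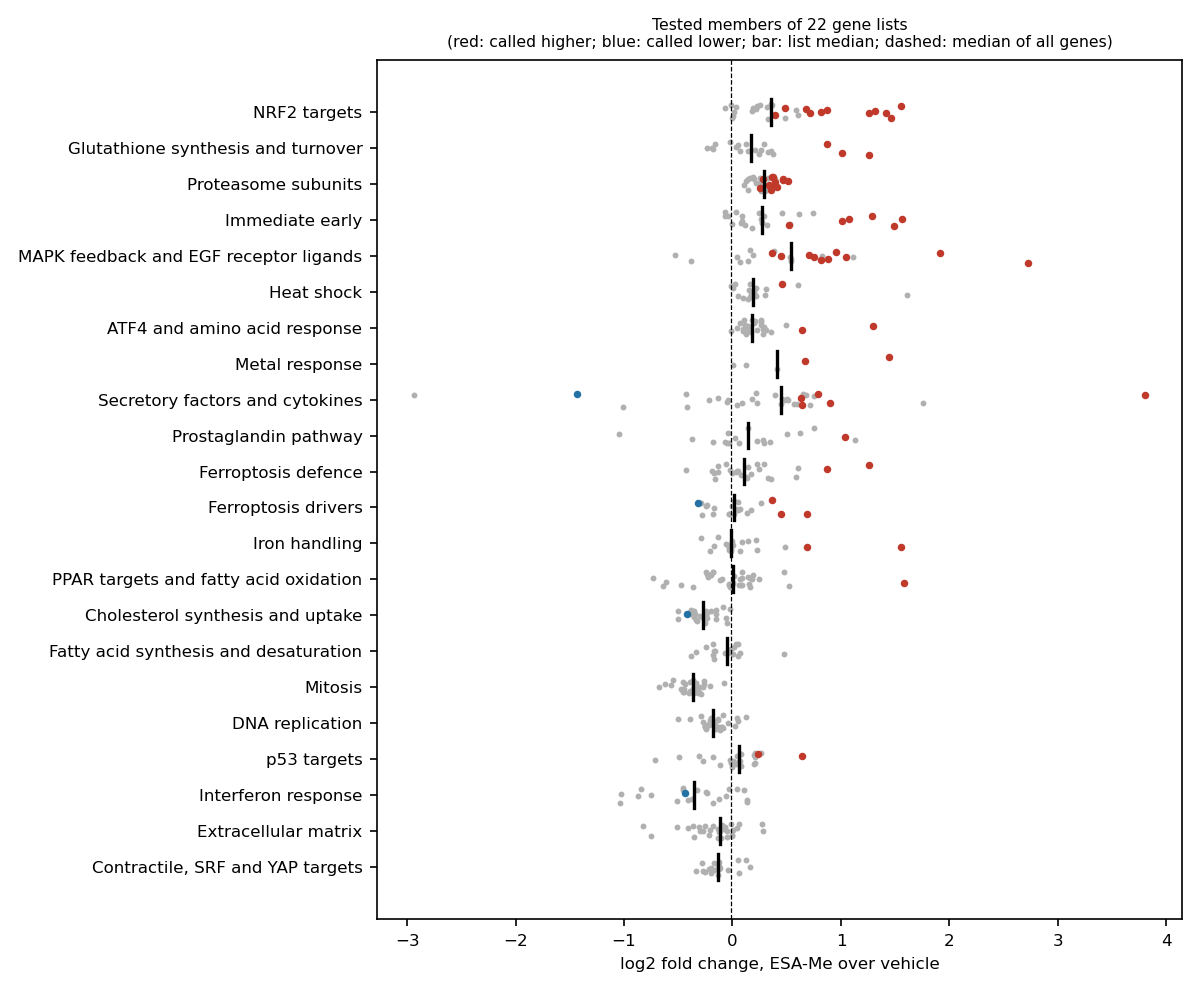
Log2 fold change with ESA-Me over vehicle of each tested member of 22 gene lists; red points were called higher, blue points lower, black bars are list medians and the dashed line is the median of all 16194 genes. The MAPK feedback list sits furthest right in median (0.54), the 33 proteasome genes form a tight group above 0, and the 30 mitosis genes lie below 0 without a call.

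Few of the genes that fell sat in the lists (4 of 102, against 59 of the 164 that rose). The lists were chosen with earlier results of these data known, so this split is a description only. Lrrc17, a secreted leucine-rich repeat protein, was at 30.4, 73.9 and 52.3 CPM with vehicle and 16.6, 16.3 and 18.7 CPM with ESA-Me. The ESA-Me libraries were close together while the vehicle libraries spread widely, and the log2 fold change was -1.53 (SE 0.31, adjusted p = 0.00894). Ptx3, a secreted pentraxin that takes part in innate immunity and matrix assembly, was at 15.6, 26.5 and 27.2 CPM against 9.40, 6.36 and 10.1 CPM (log2 -1.44, SE 0.26, adjusted p = 0.00427). Palmd and Megf6 fell by 1.51 each. Cacna1a, a calcium channel subunit, was at 9.05, 8.37 and 8.46 CPM against 4.72, 3.89 and 3.78 CPM (log2 -1.07, SE 0.19, adjusted p = 0.00389), with narrow spread in both groups.

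Receptors and growth factors among the lower genes included Ntrk3, the receptor for neurotrophin-3 (log2 -1.02, SE 0.25), Fgf18 (log2 -1.01, SE 0.25) and Jag1, a Notch ligand (log2 -0.36, SE 0.10). The groups overlapped for Fgf18 and Jag1. Il6st encodes gp130, the receptor chain shared by interleukin-6 and LIF. It was at 269, 328 and 307 CPM with vehicle and 224, 208 and 233 CPM with ESA-Me, a log2 fold change of -0.44 (SE 0.08, adjusted p = 0.00579) without overlap. The matrix genes Fmod, Fndc1 and Adamts1 fell by 0.51, 0.81 and 0.77 without overlap. Lama1, Nid2 and Ccdc80 fell by 1.38, 0.38 and 0.42 with overlapping groups. Of the 32 collagens and other genes in the extracellular matrix list none was called by edgeR, 27 were below 0, and the median was -0.12. Idh2, the mitochondrial NADP-dependent isocitrate dehydrogenase, fell by 0.38 (SE 0.10, adjusted p = 0.0424), from 119, 123 and 121 CPM to 99.2, 92.7 and 87.6 CPM.

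Cholesterol synthesis lay low as a group with a single call (3.85%, against 0.63% of all genes called lower). All 26 genes had log2 fold changes below 0, with a median of -0.27. Fdft1, squalene synthase, was at 41.6, 51.9 and 38.2 CPM with vehicle and 39.8, 33.5 and 26.3 CPM with ESA-Me, a log2 fold change of -0.42 (SE 0.10, adjusted p = 0.0319). Its groups overlapped, since ESA-Me replicate 1 lay above vehicle replicate 3. Hmgcs1, the enzyme before the rate-limiting reductase, had a log2 fold change of -0.50 (SE 0.14, adjusted p = 0.0635). None of 18 genes of fatty acid synthesis and desaturation, and none of 10 LXR target genes, was called by edgeR; their medians were -0.05 and 0.10, and the desaturase gene Scd1 was at -0.17 (SE 0.09, adjusted p = 0.351).

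Cell cycle genes leaned the same way. All 30 mitosis genes had log2 fold changes below 0, between -0.68 and -0.08, with a median of -0.36, and in 22 every ESA-Me library lay below every vehicle library (9.37% of all genes did), yet edgeR called none and the smallest adjusted p among them was 0.127. Mki67, the proliferation antigen, was at 190, 241 and 233 CPM with vehicle and 155, 126 and 181 CPM with ESA-Me (log2 -0.57, SE 0.30, adjusted p = 0.388). Of 33 DNA replication genes none was called and the median was -0.18. Cdkn1a, the p53 target that encodes the cycle inhibitor p21, was at 0.27 (SE 0.09, adjusted p = 0.111). Of 26 p53 targets 2 rose (7.69%, against 1.01% of all genes), Gdf15 and the death receptor gene Tnfrsf10b (log2 0.24, SE 0.06). Rigi, the RNA sensor RIG-I, was the call among 22 interferon response genes (4.55%, against 0.63% of all genes called lower). Its log2 fold change was -0.44 (SE 0.11, adjusted p = 0.0378), and the list median was -0.35.

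Fer-1 given before ESA-Me was set against ESA-Me alone to ask what the ferroptosis inhibitor changed. This contrast shares the 3 ESA-Me libraries with the comparison above, so an opposite sign is in part built in, and the values are given side by side only. Of 16194 genes, 282 were higher and 314 lower with Fer-1 added (3.68% in all, 1.74% and 1.94% by direction). The count depended on single libraries: it was 226, 65 or 153 without ESA-Me replicate 1, 2 or 3, and 129, 79 or 285 without replicate 1, 2 or 3 of the Fer-1 group, and 0 without the replicate term. Set against vehicle, ESA-Me with Fer-1 gave 0 called genes by edgeR's test, with 543 at an unadjusted p under 0.05. A missed threshold does not show a return to vehicle levels. Levels of Hmox1 were 125, 138 and 116 CPM with Fer-1 and ESA-Me together, below the 245 to 451 CPM of ESA-Me alone; against vehicle their log2 difference was 0.28 (SE 0.32, adjusted p = 0.9997). The log2 difference on adding Fer-1 was -1.27 (SE 0.32, adjusted p = 0.0234).

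Many ERK-related genes were lower with Fer-1 than with ESA-Me alone. Of the 23 MAPK feedback genes, 14 were lower with Fer-1, and of the 26 immediate early genes 8 were, against 1.94% of all genes. Egr2 changed by -1.33 on the log2 scale (adjusted p = 9.03e-07), Dusp4 by -1.23 (SE 0.18, adjusted p = 0.000356), Fosl1 by -1.53 (SE 0.25, adjusted p = 0.000681) and Hbegf by -1.19 (SE 0.18, adjusted p = 0.000438). Of the NRF2 list, 6 of 31 genes were lower with Fer-1, and of the 33 proteasome genes 7, against the same 1.94%. Slc7a11 changed by -1.05 (SE 0.28, adjusted p = 0.0323) and Srxn1 by -0.83 (SE 0.23, adjusted p = 0.0366). Gclm, at 36.4, 37.8 and 34.6 CPM with Fer-1, changed by -0.61 (SE 0.22, adjusted p = 0.115), and Nqo1 by -0.03 (SE 0.19, adjusted p = 0.972). Angptl4 was at 17.3, 17.8 and 18.3 CPM with Fer-1, and its change of -0.51 (SE 0.39) from ESA-Me alone was not called (adjusted p = 0.554), nor was its difference of 1.07 from vehicle (SE 0.42, adjusted p = 0.9997).

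A share of the lipid synthesis genes was higher with Fer-1 added. Of 26 cholesterol genes 8 were called higher, and of 18 fatty acid synthesis genes 6, against 1.74% of all genes. Fdft1 was at 55.1, 51.2 and 38.0 CPM, a change of 0.54 (SE 0.10, adjusted p = 0.00312) from ESA-Me alone, and Scd1 at 96.6, 110 and 84.9 CPM, a change of 0.41 (SE 0.09, adjusted p = 0.00640). Ptx3 was at 21.0, 21.1 and 25.0 CPM with Fer-1, within the range of vehicle, and differed from ESA-Me alone by 1.39 (SE 0.25, adjusted p = 0.00216). Slc6a12, a betaine and GABA transporter, differed by 1.32 (SE 0.23, adjusted p = 0.00138), Palmd by 1.47 and Megf6 by 1.33.

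**Figure D5:**
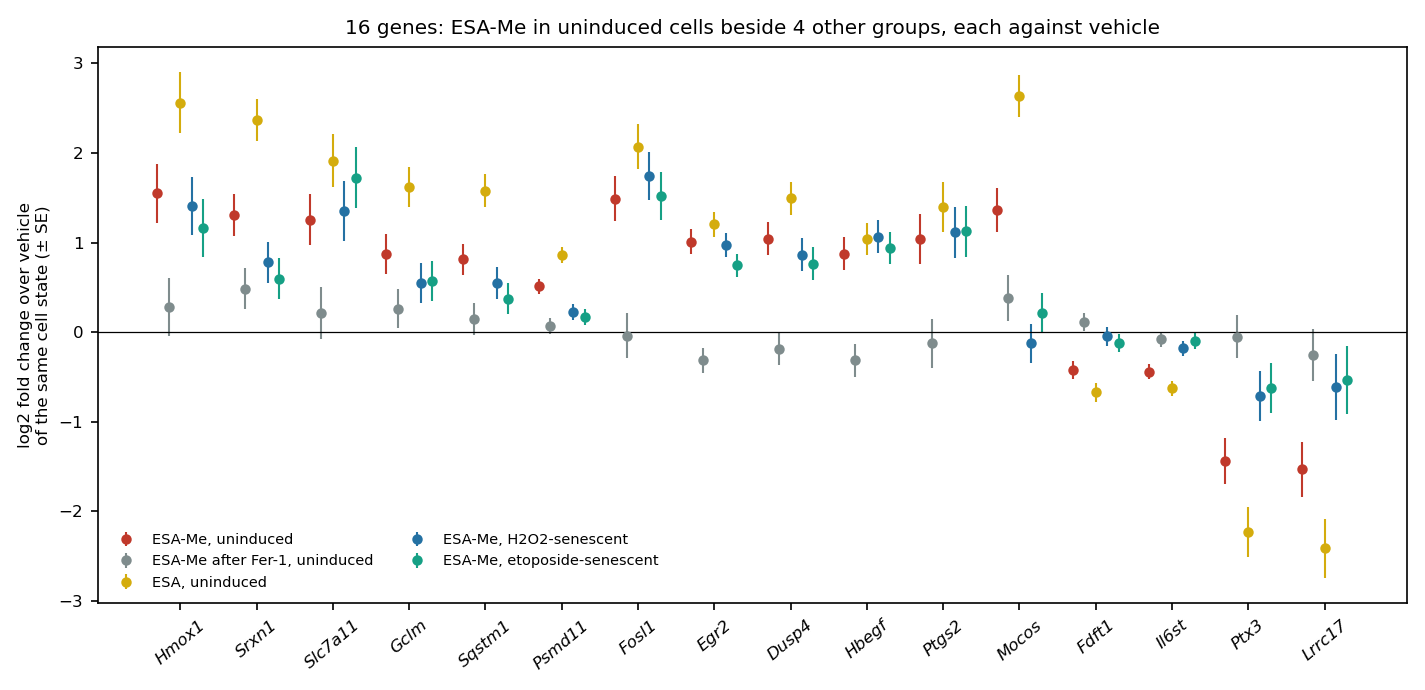
Log2 fold change over the vehicle of the same cell state for 16 genes in 5 groups (points; bars are ± 1 SE of the fit): ESA-Me in uninduced cells, ESA-Me after Fer-1, ESA in uninduced cells, and ESA-Me in H2O2-senescent and etoposide-senescent cells. Red and gold points share the uninduced vehicle libraries, and most of the gold points (ESA) lie further from 0 than the red (ESA-Me), as for Mocos at 2.64 against 1.37.

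ESA-Me and ESA in uninduced cells, whose doses may have differed, were separated by 3 genes, all lower with ESA-Me (0.0185% of those tested). Mocos, molybdenum cofactor sulfurase, was at 1.45, 0.926 and 1.62 CPM with vehicle, 3.51, 3.41 and 3.32 CPM with ESA-Me and 6.57, 12.2 and 6.44 CPM with ESA. All ESA libraries lay above all ESA-Me libraries, and the log2 difference, ESA-Me minus ESA, was -1.27 (SE 0.21, adjusted p = 0.0119). The other two were Mlkl (-0.64, SE 0.12, adjusted p = 0.0296) and Map1a, a microtubule-associated protein (-0.59, SE 0.11, adjusted p = 0.0296). Against the shared vehicle, Hmox1 had a log2 fold change of 1.55 (SE 0.33) with ESA-Me and 2.56 (SE 0.34) with ESA, and Srxn1 one of 1.31 (SE 0.23) and 2.37 (SE 0.24), where the direct differences, ESA-Me minus ESA, were -1.01 (SE 0.32, adjusted p = 0.263) and -1.06 (SE 0.23, adjusted p = 0.0626). Egr2 was at 1.01 and 1.20, and Hbegf at 0.88 and 1.04. The number of called genes was 0 without ESA replicate 2 or any ESA-Me replicate and 0 without the replicate term, but 32 without ESA replicate 1 and 8 without ESA replicate 3. A p that misses the threshold does not show that the compounds act alike.

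ESA-Me was also given to senescent cells, and the difference between its effect there and in uninduced cells was tested directly. No gene differed by edgeR's test for H2O2-senescent minus uninduced cells (0 called, 445 at an unadjusted p under 0.05) or for etoposide-senescent minus uninduced cells (0 called, 792 unadjusted), and DESeq2 and limma-voom also called 0. Without etoposide vehicle replicate 3, 98 genes were called in the second test. Of the 266 genes called in uninduced cells, 50 and 83 had an unadjusted p under 0.05. Mocos had log2 fold changes of 1.37 (SE 0.25) in uninduced, -0.13 (SE 0.22) in H2O2-senescent and 0.22 (SE 0.22) in etoposide-senescent cells, with unadjusted p of 7.81e-05 and 0.00160 for the differences. Psmd11 was at 0.51, 0.23 and 0.17 in the same order, and Gsta4 at 1.42, 0.28 and 0.29. The median of the 26 immediate early genes was 0.27 in uninduced, 0.63 in H2O2-senescent and 0.49 in etoposide-senescent cells. Among single genes in the same order, Fosl1 was at 1.49, 1.74 and 1.52, Hbegf at 0.88, 1.06 and 0.94, and Ptgs2 at 1.04, 1.11 and 1.13. Arc was at 1.07, 2.04 and 1.47 and Atf3 at 1.29, 2.15 and 1.73, with unadjusted p of 0.00755 and 0.0661 for the H2O2 differences. For Egr1 the values were 0.18, 1.09 and 0.84, with unadjusted p of 0.00781 and 0.0466 for the differences.

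Markers of other cell types were checked beside these results. No marker of any of the 8 lists was called by edgeR, and their part in the results was not tested. The summed level of 8 macrophage and leukocyte markers was 50.1 to 126 CPM with vehicle and 64.7 to 143 CPM with ESA-Me. Endothelial markers (4 of 7 tested) stood at 2.81 to 2.98 against 2.59 to 2.97 CPM, with Pecam1, Cdh5 and Cldn5 too low to test. Epithelial markers (3 of 8) stood at 23.3 to 33.9 against 26.8 to 37.9 CPM, muscle markers (3 of 8) at 117 to 173 against 114 to 178 CPM, and adipocyte markers (2 of 6) at 18.6 to 25.1 against 15.9 to 20.1 CPM, with Epcam, Myod1 and Adipoq among the untested. In 2 lists the groups did not overlap. Neural and glial markers (5 of 8) summed to 682 to 789 CPM with vehicle and 903 to 993 CPM with ESA-Me, most of it Nes, an intermediate filament gene (log2 0.40, SE 0.15, adjusted p = 0.161). Chondrocyte markers (4 of 6) summed to 790 to 914 against 530 to 788 CPM, most of it Col2a1 (log2 -0.44, SE 0.17, adjusted p = 0.202).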

How the data were processed

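Total RNA of 45 samples was extracted with Trizol and made into stranded libraries, per the labels' protocols. The authors deposited 1 table of raw read counts per gene; the submitters' processing notes name FastQC, HISAT2 2.1.0, featureCounts, edgeR and the GRCm38 mouse genome, with no settings, so strand use in counting and the handling of reads shared by similar genes are not given in the sources used here. The table lists 57010 identifiers, of which 21212 had no count, and 52029 were in GENCODE M21 (GRCm38); 15926 of the 16194 genes tested were. Library totals ran from 13.5 to 59.6 megareads over the series. Within each group of the comparison the libraries differed beyond sampling noise (chi-square per gene of at least 12 between counts scaled for depth).

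Counts were tested with edgeR 4.0.16 in R 4.3.3: filterByExpr, TMM scaling, and 1 quasi-likelihood model over all 45 libraries with a coefficient for each of 15 groups and a replicate block nested in cell state. The rule of the comparison pairs libraries by replicate number. The labels do not say what a number shares across groups, and the pairing was checked by the correlations given with the libraries above. P-values were adjusted by Benjamini-Hochberg over all genes of a comparison. SE are those implied by the F statistic, CPM use TMM-scaled library sizes, and the p-values measure spread between these libraries. Scripts were tested on simulated data. Fold changes within a pair used CPM with 0.5 added.

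The comparison, the 41 gene lists and the naming rule were chosen with earlier results of these data known. Named genes are the 15 highest and 15 lowest called log2 fold changes at a mean CPM of at least 2, the 10 largest CPM differences in each direction, a core panel, leading list members and the 4 strongest calls of the other contrasts. Other members that missed the threshold (Ereg, Spry2, Dusp1, Nfe2l2, Il6, Hspa1a, Nes, Col2a1), the smaller calls of each list and the AP-1 and CArG motifs were picked after the values were seen. Alternatives were no block, RLE and upper-quartile scaling, no filter and a stricter one, DESeq2 1.42.0, limma-voom (limma 3.58.1), fewer libraries in the fit, each library or preparation left out, and a stricter threshold.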

Additional observations from a re-analysis of the deposited data

How the results depend on the processing

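RLE or upper-quartile scaling, a filter of CPM of at least 1 in 3 libraries and limma-voom kept the count for ESA-Me against vehicle within 1.5 times of 266 (271, 272, 301 and 324 genes). Other settings moved it: 0 without the replicate block, 45 at an adjusted p under 0.01, 455 with DESeq2, 891 with no filter on low counts, 1576 when only the 15 uninduced libraries were fitted and 2073 when only the 6 compared were. Leaving out 1 library gave 3 to 132 genes, and leaving out 1 replicate number of both groups 0 to 59. The count for Fer-1 added to ESA-Me went from 596 to 0 without the block, 1040 with no filter and 2109 with the uninduced libraries alone, and to 65 to 285 with 1 library left out. For ESA-Me against ESA, 3 genes became 0 without the block, 411 with no filter, 66 with DESeq2, 29 with limma-voom and 451 with the uninduced libraries alone; with 1 library left out the range was 0 to 32. With no filter, 26 genes differed between H2O2-senescent and uninduced cells and 54 between etoposide-senescent and uninduced cells; with 1 library left out the latter count was 0 to 98. The cause was not tested, beyond the changed numbers of genes and libraries. Where 1 library was left out, its same-numbered partner stayed in the fit through the replicate term, which the other groups of the cell state also inform.

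Of the 80 named genes called for ESA-Me against vehicle, none changed sign in any setting, and 76 to 80 held their call under the scaling, filter and tool alternatives, while all 80 lost it without the block, without vehicle replicate 2 and without pair 2 or 3. Signs turned only for values near 0 that were never called. Aifm2 was at -0.00674 without ESA-Me replicate 2, -0.083 without vehicle replicate 2 and -0.0893 without pair 2 (highest 0.0986), Fos at 0.0326 without ESA-Me replicate 2 (lowest -0.15), Acsl4 at -0.00882 without vehicle replicate 3 and -0.00355 without pair 3 (highest 0.0497), and Gpx4 at 0.0481 and 0.0164 under the same omissions (lowest -0.0644). Depth limits genes such as Areg and Serpinb2, which had under 0.25 CPM in every vehicle library.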

Other observations

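Other programmes of the fibroblast gave few calls in this contrast. Arntl, which encodes the clock activator BMAL1, was the call among 16 circadian genes (6.25%, against 1.01% of all genes called higher), whose median was 0.00. It was at 27.5, 34.0 and 22.8 CPM with vehicle and 39.1, 43.6 and 34.5 CPM with ESA-Me (log2 0.49, SE 0.12, adjusted p = 0.0275). Its groups did not overlap, and with Fer-1 added to ESA-Me it changed by -0.45 (SE 0.11, adjusted p = 0.0244).

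By edgeR's test no gene was called among 26 of glycolysis and hypoxia, 22 of contractile, SRF and YAP targets, 26 of aldehyde and xenobiotic detoxification or the 13 of the mitochondrial genome. Their median log2 fold changes were 0.06, -0.14, 0.00 and -0.07. Of the 22 contractile genes 18 lay below 0, and in 8 every ESA-Me library lay below every vehicle library, against 9.37% of all genes.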
